A study of Mus musculus with 6 samples.

Results

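The genes described here are 28 genes of cholesterol synthesis, uptake and efflux, chosen by name and each read from the probe set that names it alone, the brightest where there were several. Of the 28, 26 were measured, among 22180 genes in all. Acat2 and Idi1, which no probe set names alone, are not analysed here. RNA came from primary articular chondrocytes, the cells of joint cartilage, isolated from the femoral condyles and tibial plateaus of wild-type (WT) ICR mice 5 days old. One group of 3 arrays held chondrocytes harvested 24 h after treatment with IL-1β, a proinflammatory cytokine linked to osteoarthritis, and the other group of 3 arrays held untreated chondrocytes. Both groups were grown as a monolayer, outside their matrix, in DMEM with fetal bovine serum, which carries cholesterol in lipoproteins. The labels number the arrays of each group as biological replicates 1 to 3 without saying whether they came from separate mice or cultures, so the p-values measure only the spread between these arrays.

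Animal cells make cholesterol from acetyl-CoA through mevalonate, farnesyl diphosphate, squalene and lanosterol, and they also take it up in lipoproteins through the LDL receptor and its relatives. The transcription factors encoded by Srebf1 and Srebf2, the sterol regulatory element binding proteins (SREBPs), turn on the genes of synthesis and uptake. When sterols are plentiful, INSIG proteins hold the SREBPs and their escort SCAP in the endoplasmic reticulum, and when sterols are low the SREBPs move to the Golgi and are cut free. Excess cholesterol acts the other way through its oxysterols, which activate the liver X receptors (LXRs). LXRs raise transcription of the efflux pumps ABCA1 and ABCG1 and of Mylip, whose product marks the LDL receptor for degradation. Articular cartilage has no blood vessels, and its cells receive lipid by diffusion through the matrix.

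All values are log2 RMA signals, and each difference is IL-1β minus untreated, so that a difference of 1 is a 2-fold change. The median signal of an array lay between 4.66 and 4.73, and arrays correlated at 0.981 to 0.99 within a group and at 0.965 to 0.977 between groups. Signals were set against a background level of 4.572, which 95% of 1443 probe sets for olfactory, vomeronasal and taste receptor genes did not exceed. All 14 chondrocyte markers lay above it in both groups, and all 14 fell with IL-1β. Acan, the cartilage proteoglycan aggrecan, averaged 11.05 ± 0.18 in IL-1β-treated chondrocytes and 12.29 ± 0.13 in untreated chondrocytes (SD, n = 3 each; adjusted p = 0.000164, limma). The linear signals of the 14 markers summed to 18563 to 21104 on the IL-1β arrays and 38100 to 40819 on the untreated arrays. Of 18 macrophage markers 2 rose, Cd68 by 1.22 and Cd14 by 1.60. Of the 18, 9 lay under the background level in both groups, among them Ptprc, Adgre1 and Itgam. Cx3cr1, C1qa, Marco and Trem2 lay above it in both groups without passing the test. Csf1r and Fcer1g lay above it only in untreated chondrocytes and Lyz2 only in IL-1β-treated chondrocytes, again without passing. The 18 summed to 619 to 659 on the IL-1β arrays and 425 to 528 on the untreated arrays. Of 12 fibroblast and synoviocyte markers 6 rose and 2 fell, with sums of 17062 to 18577 on the IL-1β arrays and 15230 to 15973 on the untreated arrays, while of 7 fat, muscle and blood markers 1 rose. That one was Fabp4, a fatty acid carrier, which rose by 3.57, and the fat cell genes Adipoq, Cidec and Plin1 differed by -0.02, -0.11 and -0.10 without passing, Adipoq and Cidec with both means under background. In bulk RNA fewer cells of a type and less RNA per cell cannot be told apart, and the part of these shifts in the results on cholesterol genes was not tested.

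IL-1β-treated chondrocytes had more mRNA for most enzymes of cholesterol synthesis, for both INSIG genes, and for Abca1 and Mylip, and less mRNA for Srebf1. Of the 26 measured genes 13 rose, 1 fell and 12 did not pass the test (limma, a linear model that shares variance between genes, with a Benjamini-Hochberg adjusted p under 0.05 over all 22180 genes). For comparison, 17.2% of all genes passed, 8.32% as rises and 8.88% as falls, and among the 13574 genes with a mean above background the shares were 12.7% and 13.5%. The median difference was 0.43 over the 26 genes and -0.02 over all genes, and 23 of the 26 differences were positive. In 18 of the 26 genes every IL-1β array lay above every untreated array, against 15.0% of all genes and 21.2% of the genes above background. Counted in either direction, the groups did not overlap in 19 of the 26 genes, against 33.0% of all genes and 46.2% of the genes above background. All 26 had both group means above the background level. With the study's added limit of 1 on the log2 fold change, 3 of the 26 rose (Hsd17b7, Insig2 and Abca1) and 0 fell, against 2.25% and 1.45% of all genes, and Nsdhl lay just under that limit.

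**Figure D1:**
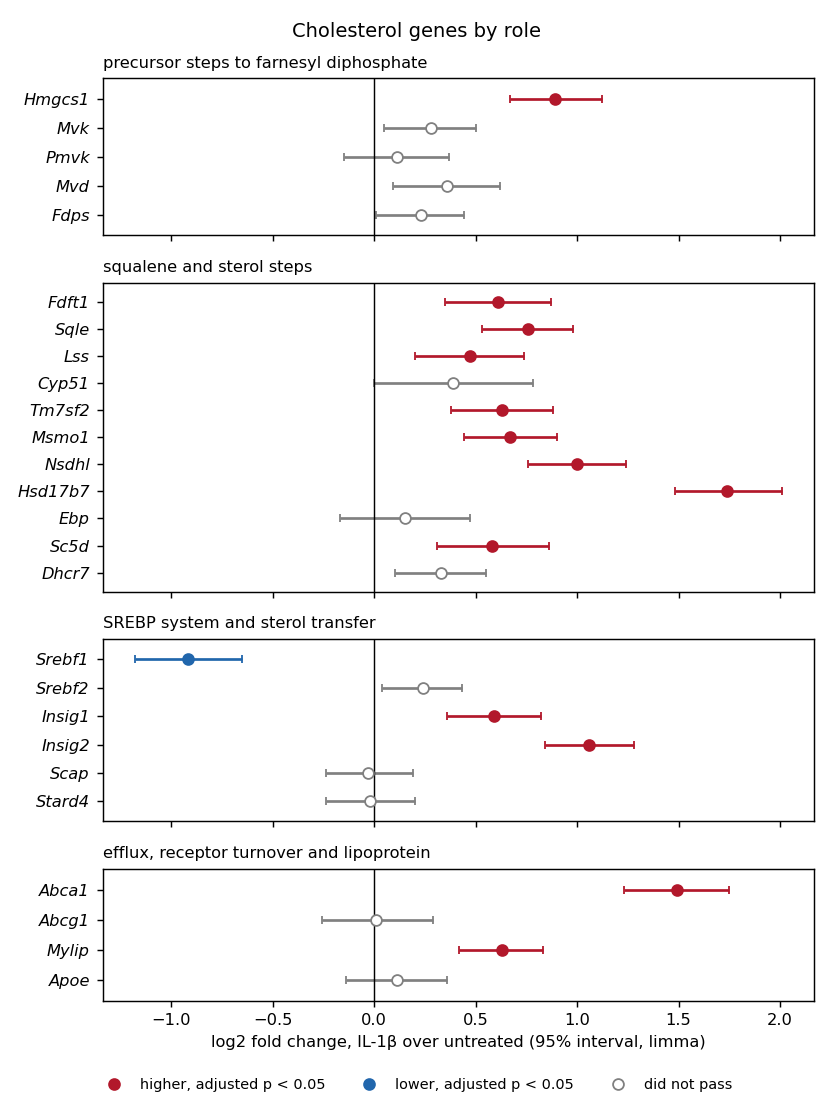
Differences (log2, IL-1β minus untreated) of the 26 measured genes with 95% intervals from limma, grouped by role; colors mark genes that passed an adjusted p under 0.05 in either direction. The synthesis enzymes lie to the right of 0, from 0.11 for Pmvk to 1.74 for Hsd17b7, and Srebf1 at -0.92 is the one gene that fell.

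The enzymes of the early pathway, which build farnesyl diphosphate from acetyl-CoA, had 5 of 7 listed genes measured, and 1 of the 5 rose. Hmgcs1, the HMG-CoA synthase that commits acetyl units to the pathway, read 9.55, 9.44 and 9.47 on the IL-1β arrays and 8.60, 8.70 and 8.48 on the untreated arrays. All 3 IL-1β arrays lay well above the untreated ones, by 0.89 (SE 0.10) or 1.86-fold (adjusted p = 0.000299). The kinases and the decarboxylase that turn mevalonate into the isoprenoid unit were closer to the untreated level and did not pass. Mvd, the decarboxylase, read 6.72, 6.59 and 6.56 in IL-1β-treated chondrocytes and 6.33, 6.41 and 6.05 in untreated chondrocytes, a difference of 0.36 (adjusted p = 0.0768). Mvk, mevalonate kinase, read 7.10, 6.99 and 7.03 in IL-1β-treated chondrocytes and 6.64, 6.89 and 6.75 in untreated chondrocytes, a difference of 0.28 (adjusted p = 0.0981). Fdps, which joins isoprenoid units into farnesyl diphosphate, read 8.51, 8.42 and 8.52 in IL-1β-treated chondrocytes and 8.29, 8.32 and 8.15 in untreated chondrocytes, a difference of 0.23 (adjusted p = 0.155). For Mvd, Mvk and Fdps the groups did not overlap, but the gap between the lowest IL-1β array and the highest untreated array was small. For Pmvk, phosphomevalonate kinase, the groups overlapped and the difference of 0.11 had an interval of -0.15 to 0.37.

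From squalene onward the pathway is committed to sterols, and 8 of its 11 enzymes rose, with a median difference of 0.61. Fdft1, squalene synthase, read 9.26, 9.32 and 9.37 on the IL-1β arrays and 8.48, 8.80 and 8.83 on the untreated arrays (difference 0.61, SE 0.12, adjusted p = 0.00633). Sqle, the oxygenase that makes squalene epoxide, read 8.20, 8.24 and 8.28 on the IL-1β arrays and 7.60, 7.49 and 7.35 on the untreated arrays (difference 0.76, SE 0.10, adjusted p = 0.000832). In both genes the IL-1β arrays lay close together above all untreated arrays. Lss, which closes the epoxide into lanosterol, read 7.79, 7.76 and 7.74 on the IL-1β arrays and 7.12, 7.52 and 7.24 on the untreated arrays (difference 0.47, SE 0.12, adjusted p = 0.0252). Untreated replicate 2 was the nearest to the treated arrays. The call for Lss was lost without any one of the other 5 arrays (adjusted p between 0.0587 and 0.0904, limma) and was kept without untreated replicate 2 (adjusted p = 0.00604).

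Msmo1, Nsdhl and Hsd17b7, which act together after Cyp51 to strip further methyl groups from the sterol ring, all rose, and Hsd17b7 rose more than any other of the 26 genes. Hsd17b7, the ketoreductase of this step, read 7.26, 7.06 and 7.40 on the IL-1β arrays and 5.40, 5.63 and 5.46 on the untreated arrays. Its means were 7.24 ± 0.17 in IL-1β-treated chondrocytes and 5.50 ± 0.12 in untreated chondrocytes (SD, n = 3 each), a 3.35-fold rise (adjusted p = 2.30e-05) that placed it at rank 150 of 22180 genes by log2 fold change. The lowest IL-1β array stood well above the highest untreated array. Nsdhl, the dehydrogenase of the same step, read 9.53, 9.36 and 9.56 on the IL-1β arrays and 8.36, 8.49 and 8.61 on the untreated arrays (difference 1.00, SE 0.11, adjusted p = 0.00027). Msmo1, the oxidase that acts first on these methyl groups, read 7.74, 7.69 and 7.83 on the IL-1β arrays and 6.94, 7.16 and 7.15 on the untreated arrays (difference 0.67, SE 0.10, adjusted p = 0.00185). In all 3 enzymes the groups were well apart. Tm7sf2, a sterol reductase, read 6.78, 6.60 and 6.85 in IL-1β-treated chondrocytes and 6.23, 6.13 and 5.99 in untreated chondrocytes (difference 0.63, adjusted p = 0.00411).

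Cyp51, the demethylase that opens the work on lanosterol, showed a different pattern over the arrays. It read 7.95, 7.64 and 8.22 in IL-1β-treated chondrocytes and 7.72, 7.26 and 7.67 in untreated chondrocytes, so the groups overlapped and replicate 2 was the lowest of each group. The difference of 0.39 had an adjusted p of 0.184, and of 0.0362 with the replicate number as a block (limma). Among the last enzymes, Sc5d, the sterol desaturase, read 8.94, 8.71 and 9.13 on the IL-1β arrays and 8.41, 8.33 and 8.30 on the untreated arrays (difference 0.58, SE 0.12, adjusted p = 0.00956). Its groups were apart, with the IL-1β arrays more spread than the untreated ones, and by the methods' t-test, run on the same values, its adjusted p was 0.0654. Dhcr7, the reductase that makes cholesterol in the last step, read 8.38, 8.27 and 8.31 on the IL-1β arrays and 7.90, 8.13 and 7.96 on the untreated arrays. All treated arrays lay above the untreated ones, but the difference of 0.33 missed the threshold (adjusted p = 0.0539) and passed it without untreated replicate 2 (adjusted p = 0.0342). Ebp, the sterol isomerase, read 6.93, 6.95 and 6.88 on the IL-1β arrays and 6.43, 6.94 and 6.92 on the untreated arrays, and its difference of 0.15 (interval -0.17 to 0.47) came from the low untreated replicate 1.

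Averaged over the 16 measured synthesis enzymes and set to the untreated mean, IL-1β replicates 1, 2 and 3 stood at 0.60, 0.50 and 0.62 and untreated replicates 1, 2 and 3 at -0.06, 0.07 and -0.02. IL-1β replicate 2 was the lowest of its group for 15 of the 26 genes, and untreated replicate 2 was the highest of its group for 12. Of the 16 enzymes, 13 had groups that did not overlap, against 33.0% of all genes and 46.2% of the genes above background, counted in either direction. The 5 early enzymes averaged 0.34 to 0.42 on the IL-1β arrays, and the 11 enzymes from squalene onward averaged 0.57 to 0.75. The difference between these parts of the pathway was not tested.

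**Figure D2:**
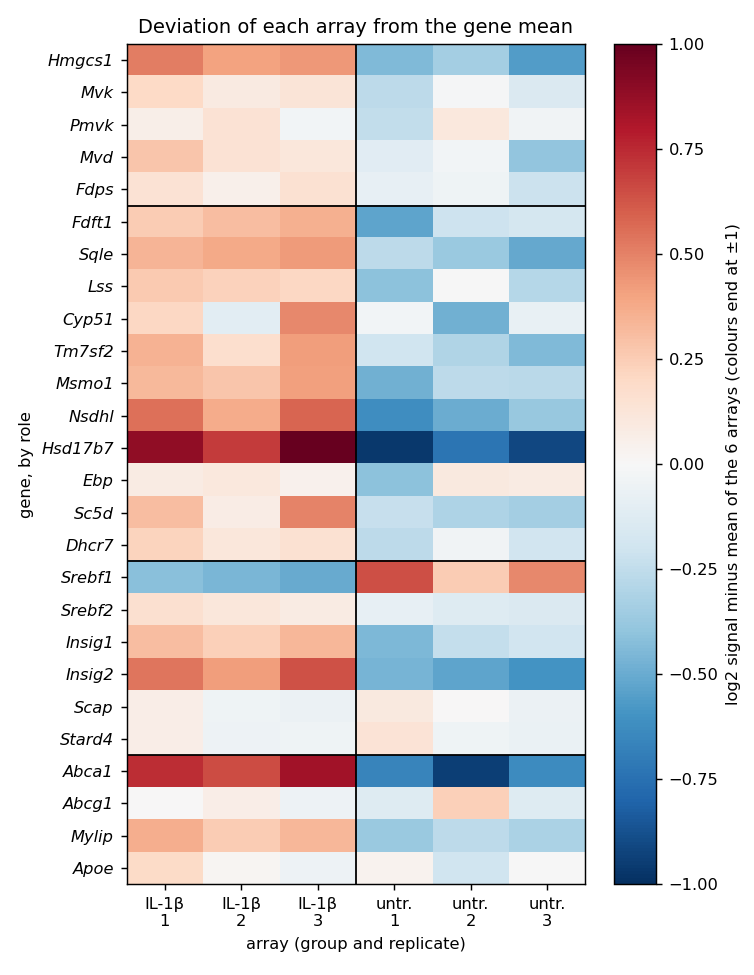
Each of the 26 genes (rows) on each of the 6 arrays (columns, IL-1β arrays left of untreated arrays) as the log2 signal minus the mean of that gene, with colors ending at 1 in each direction. Most synthesis enzymes, Insig2, Abca1 and Mylip are high on the 3 IL-1β arrays, Srebf1 is high on the 3 untreated arrays, and Scap, Stard4 and Abcg1 show no split by group.

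The start regions of these enzymes were read to show what sequence they share, since SREBPs act at sterol elements (TCACNCCAC) and E-boxes (CACGTG) and need neighbors such as NF-Y, which binds CCAAT. Each window runs from 250 bases before to 50 after an annotated start (RefSeq, GRCm38.p6), in the direction of the gene, and capitals mark the sterol element, the E-box and the CCAAT box (printed ATTGG where it lies on the other strand). Hsd17b7 (chr1:169969156-169969455, minus strand), Nsdhl (chrX:72918271-72918570, plus strand), Msmo1 (chr8:64733529-64733828, minus strand) and Hmgcs1 (chr13:119690101-119690400, plus strand) are shown as enzymes that rose strongly and hold several CCAAT boxes.
Hsd17b7: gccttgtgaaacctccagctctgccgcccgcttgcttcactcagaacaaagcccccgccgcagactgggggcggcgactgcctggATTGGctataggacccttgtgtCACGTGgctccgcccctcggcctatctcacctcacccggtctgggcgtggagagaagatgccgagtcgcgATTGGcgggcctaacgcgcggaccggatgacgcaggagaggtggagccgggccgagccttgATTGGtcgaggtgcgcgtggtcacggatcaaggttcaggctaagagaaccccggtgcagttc
Nsdhl: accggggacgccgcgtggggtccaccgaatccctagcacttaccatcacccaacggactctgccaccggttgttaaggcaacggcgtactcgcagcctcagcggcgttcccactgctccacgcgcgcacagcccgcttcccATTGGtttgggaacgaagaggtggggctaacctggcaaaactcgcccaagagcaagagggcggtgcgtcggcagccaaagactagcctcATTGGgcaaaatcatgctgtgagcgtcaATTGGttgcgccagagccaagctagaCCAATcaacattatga
Msmo1: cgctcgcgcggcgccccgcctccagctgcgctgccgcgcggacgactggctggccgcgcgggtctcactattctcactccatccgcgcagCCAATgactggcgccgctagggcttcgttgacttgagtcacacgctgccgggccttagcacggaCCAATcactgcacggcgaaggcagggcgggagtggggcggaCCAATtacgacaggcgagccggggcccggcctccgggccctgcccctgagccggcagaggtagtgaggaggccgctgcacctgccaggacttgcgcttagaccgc
Hmgcs1: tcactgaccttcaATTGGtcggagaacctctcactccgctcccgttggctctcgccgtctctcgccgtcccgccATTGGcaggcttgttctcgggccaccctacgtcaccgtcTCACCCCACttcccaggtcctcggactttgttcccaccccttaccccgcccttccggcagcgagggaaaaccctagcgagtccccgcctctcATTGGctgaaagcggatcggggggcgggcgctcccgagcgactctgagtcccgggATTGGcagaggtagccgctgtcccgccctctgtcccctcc

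Hsd17b7 holds ATTGG at -165, -73 and -12 from its start and CACGTG at -143, where each position is that of the first base of the match. Nsdhl holds ATTGG at -109, -20 and 9 and CCAAT at 35, and Msmo1 holds CCAAT at -160, -96 and -55. Hmgcs1 holds ATTGG at -237, -176, -45 and 11, and among the 23 listed genes with a window it alone held TCACNCCAC, at -137. The sterol element was searched in this spelling only, so the windows without it may hold looser forms that were not searched. Of the 28 listed genes 23 had a window, and 19 of the 23 (82.6%) held a CCAAT box on either strand, against 41.1% of all 27025 genes with a window. CACGTG was in 6 of the 23 (26.1%), which were Hsd17b7, Sc5d, Dhcr7, Insig1, Scap and Abca1, against 8.09% of all genes, and TCACNCCAC was in 1 of the 23 (4.35%), against 1.44%. The CCAAT box did not separate genes by their response, as it was in 10 of 11 genes that rose and 7 of 9 that did not pass. Several boxes were not particular to the enzymes printed above. Mvk, which did not pass, holds ATTGG at -173, -120, -67 and -14 and CCAAT at -50. Lss, Tm7sf2 and Sc5d rose, and their only boxes are ATTGG at -62, -47 and -24, in that order. Genes with several windows have more chances of a match and a match is a run of letters and not a shown binding site. No window was found for Fdft1, Fdps, Sqle, Abcg1 and Stard4.

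The sensors and switches of the pathway did not move together. Insig2, one of the proteins that hold SREBPs back, read 8.22, 8.11 and 8.32 on the IL-1β arrays and 7.22, 7.16 and 7.09 on the untreated arrays (difference 1.06, SE 0.10, 2.09-fold, adjusted p = 0.000121). Insig1, its relative and itself a known SREBP target, read 8.95, 8.88 and 8.97 on the IL-1β arrays and 8.19, 8.40 and 8.45 on the untreated arrays (difference 0.59, SE 0.10, adjusted p = 0.00401). Both genes had groups well apart. Srebf1, whose product acts mainly on fatty acid genes, read 8.01, 7.97 and 7.92 on the IL-1β arrays and 9.06, 8.68 and 8.90 on the untreated arrays. It was 1.89-fold lower with IL-1β (difference -0.92, SE 0.11, adjusted p = 0.000672), at rank 390 of 22180 among falls, and every treated array lay below every untreated one. One probe set gives 1 value for the gene, so its alternative first exons were not told apart.

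Srebf2, whose product acts mainly on cholesterol genes, read 8.97, 8.93 and 8.90 on the IL-1β arrays and 8.73, 8.68 and 8.66 on the untreated arrays. The groups were tight and did not overlap, but the difference of 0.24 (interval 0.04 to 0.43) did not pass the test (adjusted p = 0.105), and it passed by the methods' t-test (adjusted p = 0.019). Scap, the escort, averaged 7.84 ± 0.07 in IL-1β-treated chondrocytes and 7.87 ± 0.08 in untreated chondrocytes, a difference of -0.03 with an interval of -0.24 to 0.19. Stard4, which carries sterol between membranes, read 6.68, 6.56 and 6.57 on the IL-1β arrays and 6.75, 6.57 and 6.55 on the untreated arrays, a difference of -0.02 with an interval of -0.24 to 0.20. In both genes the groups overlapped, and the arrays of each group covered nearly the same range.

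**Figure D3:**
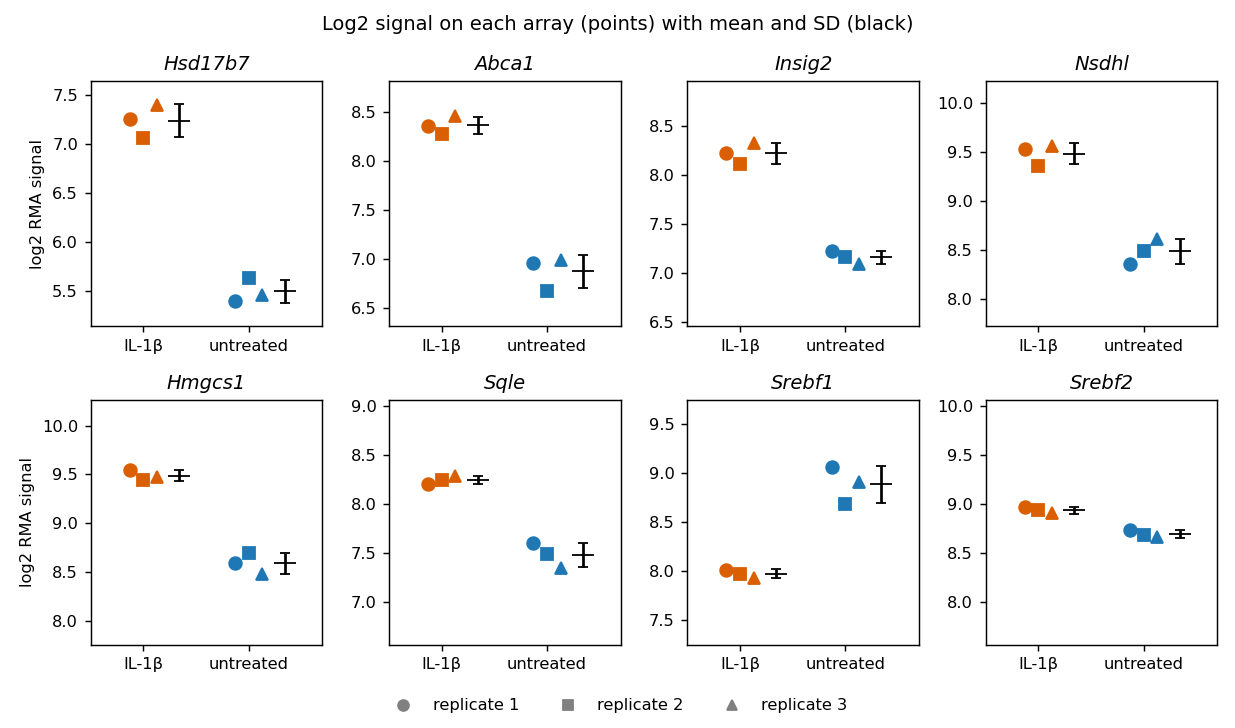
Log2 RMA signal of 8 genes on each array (points), with the group mean and SD (n = 3), IL-1β left of untreated. Hsd17b7, Abca1, Insig2, Nsdhl, Hmgcs1 and Sqle were higher with IL-1β, Srebf1 was lower, and Srebf2 differed by 0.24 without passing the test.

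Of the genes of efflux, receptor turnover and lipoproteins, 2 of 4 rose. Abca1, the pump that loads cholesterol onto apolipoproteins outside the cell, read 8.36, 8.28 and 8.46 on the IL-1β arrays and 6.96, 6.68 and 6.99 on the untreated arrays. The groups were far apart, and the 2.81-fold rise (difference 1.49, SE 0.11, adjusted p = 4.37e-05) placed it at rank 216 of 22180 genes. Mylip, the ubiquitin ligase that sends the LDL receptor to degradation, read 7.95, 7.83 and 7.91 on the IL-1β arrays and 7.21, 7.32 and 7.27 on the untreated arrays (difference 0.63, SE 0.09, adjusted p = 0.00141). Abcg1, the companion pump that loads HDL, read 5.63, 5.69 and 5.58 on the IL-1β arrays and 5.49, 5.87 and 5.50 on the untreated arrays. Its groups overlapped, and the difference of 0.01 had an interval of -0.26 to 0.29. Apoe, the apolipoprotein that takes up exported cholesterol, read 5.35, 5.18 and 5.11 on the IL-1β arrays and 5.20, 4.96 and 5.16 on the untreated arrays, again with overlap (difference 0.11, interval -0.14 to 0.36). Abca1, Abcg1, Mylip, Apoe and Srebf1 are all known LXR targets, and among them 2 rose, 1 fell and 2 did not pass. Those that did not pass, Abcg1 and Apoe, had the lowest overall means of the measured listed genes (5.63 and 5.16). These means were nearer the background level of 4.572 than those of the others.

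The start regions of the most strongly raised efflux gene and of the gene that fell are shown for contrast with those of the enzymes, with the same marks: Abca1 (chr4:53159846-53160145, minus strand) and 1 of the 3 windows of Srebf1 (chr11:60210422-60210721, minus strand).
Abca1: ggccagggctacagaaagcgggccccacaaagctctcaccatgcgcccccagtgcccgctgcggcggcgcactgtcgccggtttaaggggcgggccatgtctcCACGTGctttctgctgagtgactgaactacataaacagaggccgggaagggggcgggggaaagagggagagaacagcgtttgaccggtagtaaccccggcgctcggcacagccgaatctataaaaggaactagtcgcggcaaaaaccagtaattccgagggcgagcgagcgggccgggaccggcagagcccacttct
Srebf1: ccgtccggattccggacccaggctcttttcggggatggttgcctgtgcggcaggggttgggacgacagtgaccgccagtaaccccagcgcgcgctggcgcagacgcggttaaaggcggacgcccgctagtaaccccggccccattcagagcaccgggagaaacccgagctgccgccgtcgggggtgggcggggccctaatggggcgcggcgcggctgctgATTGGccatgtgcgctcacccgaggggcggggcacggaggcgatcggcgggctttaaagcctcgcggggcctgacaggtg
Abca1 holds CACGTG at -147 and was the only gene that rose, among those with a window, without a CCAAT box. Srebf1 holds ATTGG at -30 in the window shown. The LXR direct-repeat element was searched on both strands in its exact consensus spelling only, and looser matches were not searched. That spelling was found in the windows of 4 of the 27025 genes and in 0 of the 23 listed genes. With so few matches among all genes, the 0 cannot show whether these windows, including those printed here, hold LXR elements of a looser form.

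Of 30 other genes of cholesterol handling 21 were measured, and 5 rose and 5 fell, with a median difference of -0.01. Scarb1, the HDL receptor, read 9.54, 9.61 and 9.59 on the IL-1β arrays and 8.49, 8.67 and 8.45 on the untreated arrays (difference 1.04, SE 0.10, 2.06-fold, adjusted p = 0.000126). Npc2, which hands cholesterol out of the lysosome, rose by 0.88 (adjusted p = 0.000307), while its partner Npc1 differed by -0.21 with overlapping groups (adjusted p = 0.28). Lrp1, a broad receptor for lipoprotein remnants and proteases, rose by 0.78 (adjusted p = 0.00076), and Lipa, the acid lipase that frees cholesterol from its esters, by 0.64 (adjusted p = 0.00901). Vldlr, a receptor of the LDL receptor family, rose by 0.62 (adjusted p = 0.00699). By the methods' t-test, Lipa (adjusted p = 0.075) and Vldlr (adjusted p = 0.0565) lost their calls.

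Of the genes that fell, Lrp8, a further receptor of the LDL receptor family, read 6.39, 6.44 and 6.24 on the IL-1β arrays and 7.11, 7.26 and 7.17 on the untreated arrays (difference -0.82, SE 0.10, adjusted p = 0.000498). Tmem97, a sterol-binding membrane protein, fell by 0.62 (adjusted p = 0.00141), and Erlin1, which takes part in the turnover of sterol-sensing proteins in the endoplasmic reticulum, fell by 0.57 (adjusted p = 0.0121). Rnf139, a ubiquitin ligase of the endoplasmic reticulum, fell by 0.35 (adjusted p = 0.0468), and Mbtps1, the first protease that cuts SREBPs, fell by 0.32 (adjusted p = 0.0433). The count of 5 falls was 2 or 3 without any one of the 6 arrays: Rnf139 and Mbtps1 passed in none of these, and Erlin1 failed without untreated replicate 1 (adjusted p = 0.0507) or 3 (adjusted p = 0.0539). Nr1h3, which encodes LXRα, averaged 6.07 ± 0.06 in IL-1β-treated chondrocytes and 5.73 ± 0.14 in untreated chondrocytes and missed the threshold (adjusted p = 0.0581, limma), while with the replicate block the adjusted p was 0.0414.

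**Figure D4:**
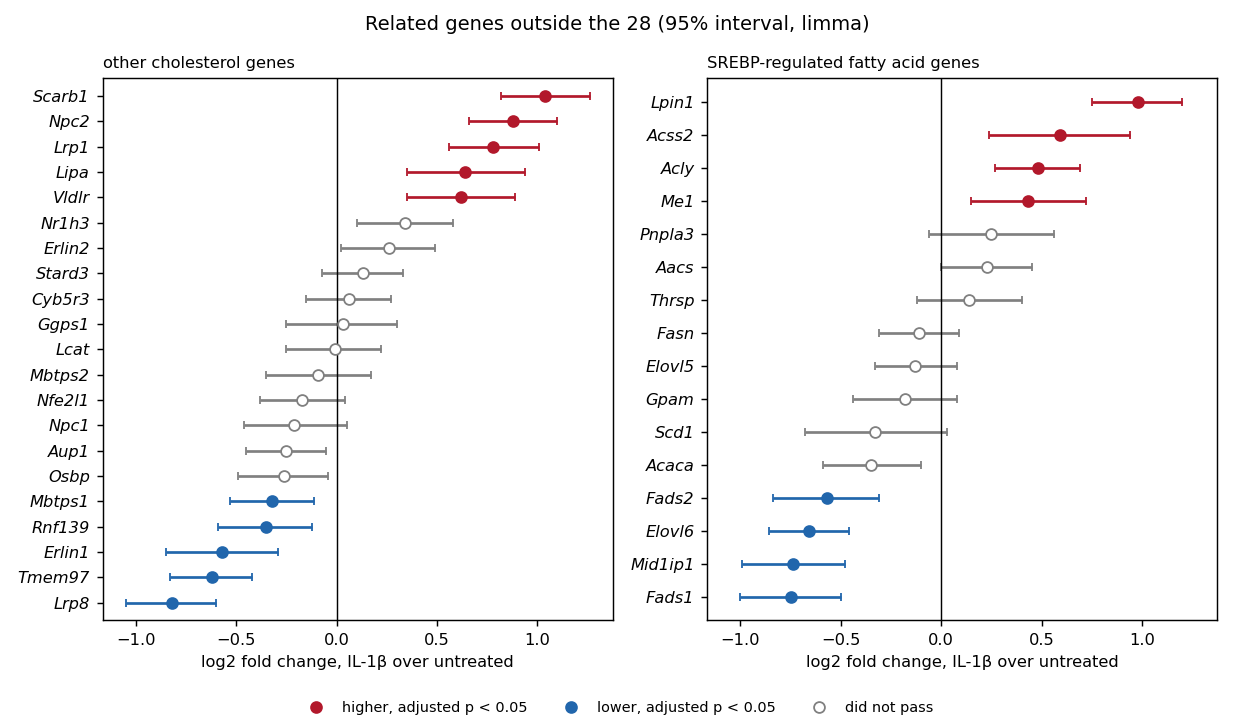
Differences (log2, IL-1β minus untreated) with 95% intervals from limma for the other cholesterol genes and for the fatty acid genes under SREBP control; colors mark genes that passed an adjusted p under 0.05 in either direction. Both lists spread to each side of 0, from Scarb1 at 1.04 to Lrp8 at -0.82 and from Lpin1 at 0.98 to Fads1 at -0.75.

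The fatty acid genes that SREBPs also control were split. Of 18 listed 16 were measured, and 4 rose and 4 fell, with a median difference of -0.12. Lpin1, a phosphatidate phosphatase, rose by 0.98 (adjusted p = 0.000191), and the enzymes that supply acetyl-CoA and NADPH rose less: Acss2 by 0.59 (adjusted p = 0.0292), Acly by 0.48 (adjusted p = 0.00715) and Me1 by 0.43 (adjusted p = 0.0455). The desaturases Fads1 and Fads2 fell by 0.75 and by 0.57 (adjusted p = 0.00173 and 0.0097), the elongase Elovl6 fell by 0.66 (adjusted p = 0.000998), and Mid1ip1, a regulator of acetyl-CoA carboxylase, fell by 0.74 (adjusted p = 0.00202), with differences of -0.42 and 0.02 from its dimmer probe sets. Fasn, fatty acid synthase, differed by -0.11 and Scd1, the stearoyl-CoA desaturase, by -0.33, and neither passed (adjusted p = 0.478 and 0.215). The count of 4 rises was 2 without IL-1β replicate 1, untreated replicate 1 or untreated replicate 3, as Acss2 and Me1 failed without each of them, and 3 without any other array. Scd1 passed without untreated replicate 2 (adjusted p = 0.0379).

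Of 14 other LXR targets, some of which are also in the lists above, 12 were measured, and 2 rose and 1 fell. Pltp, the phospholipid transfer protein, read 8.49, 8.39 and 8.60 on the IL-1β arrays and 7.92, 7.88 and 7.91 on the untreated arrays (difference 0.59, SE 0.09, adjusted p = 0.00267). Smpdl3a, a phosphodiesterase, rose by 0.39 (adjusted p = 0.0235), though its dimmer probe set differed by -0.08 and the call was lost without IL-1β replicate 2 (adjusted p = 0.0632), IL-1β replicate 3 (0.0827), untreated replicate 2 (0.0504) or untreated replicate 3 (0.096). Lpl, lipoprotein lipase, fell by 0.67 (adjusted p = 0.00454), with -0.19 from its dimmer probe set. Abcg5 and Abcg8, the sterol pumps of liver and gut, and Apoc1 and Apoc2 lay under the background level in both groups. With the replicate block the number that rose was 4, the added genes being Nr1h3 and the transporter Abca7 (adjusted p = 0.0306).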

How the data were processed

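RNA of 6 samples was measured on Affymetrix mouse gene ST arrays. The authors summarized probe signals with RMA (background correction, quantile normalization, 1 value per probe set), and the deposited log2 values, from 0.909 to 13.04 over 41345 probe sets, were used as they stand. RMA makes array distributions alike, so a shift shared by all genes cannot be seen. The platform's gene table gives 1 symbol for 23521 probe sets, several for 1820 (not used) and none for 16004, and 23328 were found in the RefSeq gene table through Entrez IDs. Of 22180 genes, 1082 had several probe sets and took the brightest by mean. The genome build of the probe sets is not given in the sources used here. Arrays carry no detection p, and their number limits the precision.

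Groups came from the labels. IL-1β and untreated arrays entered one linear model in limma (version 3.58.1, R 4.3.3) with moderated variances, no filter and no covariate, and with Benjamini-Hochberg adjustment over all genes, checked first on simulated data. Intervals are at 95%. An exact permutation test of 3 against 3 cannot go below p = 0.1 and was not used. Alternatives were leaving out each array, the replicate number as a block, filters on dim genes, other normalizations, other probe set rules, array weights, a trended and robust variance prior, the methods' t-test (on the same values) and the study's fold limit. Same-numbered arrays deviated from their group means together (r over genes of 0.101, 0.379 and 0.189 for numbers 1, 2 and 3, all over the limit of 0.1), so by that check the numbers pair the arrays, though IL-1β replicate 3 with untreated replicate 1 gave 0.226 and no label says what a number stands for. The main comparison had no block, since pairing is not part of the study's methods.

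The genes named are all 28 listed genes, up to 4 genes in each direction of every other list by size of change among those that passed, genes that missed the threshold where a result turns on them, and chondrocyte and macrophage markers. Vldlr, Mbtps1, Npc1, Hprt, Fasn, Scd1, Abca7, the macrophage markers that did not pass and the genes under background were named after their values were seen. The members and lists were chosen with earlier results of these data known. Of 30 other cholesterol genes, 9 had no probe set of their own and are not analysed here. Of the other marker lists, 2 of 8 endothelial, 1 of 7 osteoblast and osteoclast and 1 of 7 fat, muscle and blood markers rose, and 0, 2 and 0 fell. Of 6 control genes 0 passed. Gapdh differed by 0.07, and Hprt by 0.31 (adjusted p = 0.183), which passed with the replicate block (adjusted p = 0.0425).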

Additional observations from a re-analysis of the deposited data

How the results depend on the processing

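Over 16 alternatives (all but the fold limit), the 26 genes gave 416 differences. Of these, 378 kept their direction and their side of the threshold, and 12 of the 14 genes called passed in each. Lss lost its call in 7 alternatives and Sc5d in 1, and 6 genes that had not passed (Mvk, Mvd, Fdps, Cyp51, Dhcr7 and Srebf2) passed in 19. Direction turned for 4 genes that were never called: leaving out 1 array gave -0.01 to 0.24 for Ebp, -0.07 to 0.01 for Scap, -0.06 to 0.04 for Stard4 and -0.05 to 0.14 for Abcg1. Array weights gave 0.04 for Scap and Stard4, and Abcg1 was at -0.02 after quantile normalization was run again or arrays were centered on their medians. The cause was not tested.

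With the fold limit, 500 genes rose and 321 fell, and of the 26 genes 3 rose and 0 fell. When all probe sets were adjusted together 1300 genes fell, where more tests are adjusted for. Leaving out 1 array gave 1315 to 1746 genes that rose and 1345 to 1786 that fell, with 12 to 14 of the 26 genes rising and 1 falling. With the replicate number as a block, 14 of the 26 rose and 1 fell, and over all genes 2057 rose and 2230 fell. Among the 26 genes the block changed no call other than that of Cyp51. By the methods' t-test, 3 of the other cholesterol genes, 2 fatty acid genes and 1 macrophage marker rose, where limma called 5, 4 and 2. Of the 26 genes, 17 rose with either filter on dim genes (15.3% and 15.4% of all genes kept), 16 with the trended and robust variance prior (9.66% of all genes) and 18 with array weights (2656 of 22180 genes).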
